A study of Mus musculus with 12 samples.

Results

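The 36 genes described here are antiviral interferon-stimulated genes, which encode sensors of foreign nucleic acid and the effectors that act against viruses. They were taken from a list of mouse symbols and matched to 36 of the 56748 gene identifiers in the count files. Expression was measured by bulk RNA-seq in Eµ-Myc lymphoma, a mouse B cell lymphoma driven by Myc under the immunoglobulin heavy chain enhancer. The labels treat it as 1 cell line. The 4 culture libraries came from lymphoma cells taken from culture. The 4 lymphatic libraries came from lymphoma cells sorted from lymph nodes of C57BL/6J mice on day 11 after injection, after spread through lymphatic vessels, and the 4 hematogenous libraries from lymph nodes on day 18, after spread through the blood. Route and day change together and cannot be told apart. The gate used for sorting is not given in the sources used here, and the tissue field names lymph node for the culture libraries too, so the titles were followed.

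Type I interferons bind the receptor formed by Ifnar1 and Ifnar2, and the kinases Jak1 and Tyk2 then activate transcription factors. Together with Irf9 these form a complex that binds the interferon-stimulated response element in promoters and switches on genes such as those described here. Many of the products are present at low levels in resting cells and accumulate once interferon has been received, and B cells respond to interferon in this way as other nucleated cells do.

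Counts assigned to genes ranged from 5286775 to 25302016 per library. Values are given as CPM, edgeR's scaling of counts to a common library depth with TMM factors, always in the order of libraries 1 to 4, and a difference was called at an adjusted p under 0.05 in edgeR's quasi-likelihood test over 13535 genes. Differences are log2 changes ± SE unless said otherwise. Lymphatic library 4 stood apart from the others, with 16.1% of its counts in ribosomal protein genes against 7.62% to 9.91% elsewhere, and counts of called genes are given with and without it. The B cell markers Pax5 and Cd79b were abundant in all groups, with Pax5 at 548 ± 28.2, 419 ± 71.4 and 777 ± 54.2 CPM and Cd79b at 269 ± 18.7, 481 ± 158 and 629.6 ± 44.0 CPM (mean ± SD, n = 4) in culture, lymphatic and hematogenous libraries. In these bulk samples, fewer cells of a type and less RNA per cell cannot be told apart.

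Against culture, all 35 testable genes were called higher in the lymphatic group (edgeR adjusted p under 0.05) and 24 in the hematogenous group, where 13.4% and 13.9% of all tested genes were. The 36 genes together summed to 358 ± 10.3 CPM in culture (SD, n = 4), 817 ± 65.1 CPM in the hematogenous libraries and 1496 ± 522 CPM in the lymphatic libraries. The hematogenous sums lay between 740 and 888 CPM, above all culture sums (347.7 to 371 CPM), and the lymphatic sums, from 867 to 2124 CPM, overlapped the hematogenous range only through lymphatic library 3. Of the 36 genes, 35 passed the filter on low counts, and Ifitm2 did not. Some of the 35, such as Ifi44, Ifit3b, Zbp1 and Rsad2, passed it only through the lymphatic libraries. Which genes could be tested was therefore set in part by the level in that group.

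Against culture, all 35 tested genes were higher in the lymphatic group and 0 were lower, while 13.4% of all genes tested were called higher and 13.0% lower. Their median log2 change was 4.58, against 0.04 over all genes. In 34 of the 35 every lymphatic library lay above every culture library, an order seen in 14.6% of all genes, and Dtx3l was the exception. In the hematogenous group 24 were higher than in culture, 0 were lower and 11 were not called, where 13.9% of all genes were called higher and 13.9% lower. The median there was 2.01 against -0.00 over all genes, and all 4 hematogenous libraries lay above all 4 culture libraries for 24 genes, as they did for 21.9% of all genes. Both comparisons use the same culture libraries.

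Set directly against each other, the lymphatic group held more transcripts than the hematogenous group for 28 of the 35 genes and fewer for 0, with 7 not called, where 11.4% of all genes were called higher and 10.9% lower. The median log2 difference was 2.08 against 0.03 over all genes. All 4 lymphatic libraries lay above all 4 hematogenous libraries in 23 genes, an order seen in 11.5% of all genes. Without lymphatic library 4, 35, 25 and 31 genes were higher in the 3 comparisons, with medians of 4.28, 2.02 and 1.70, and genes called higher among all tested then numbered 2440, 2995 and 2080, against 1816, 1880 and 1542 with it.

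**Figure D1:**
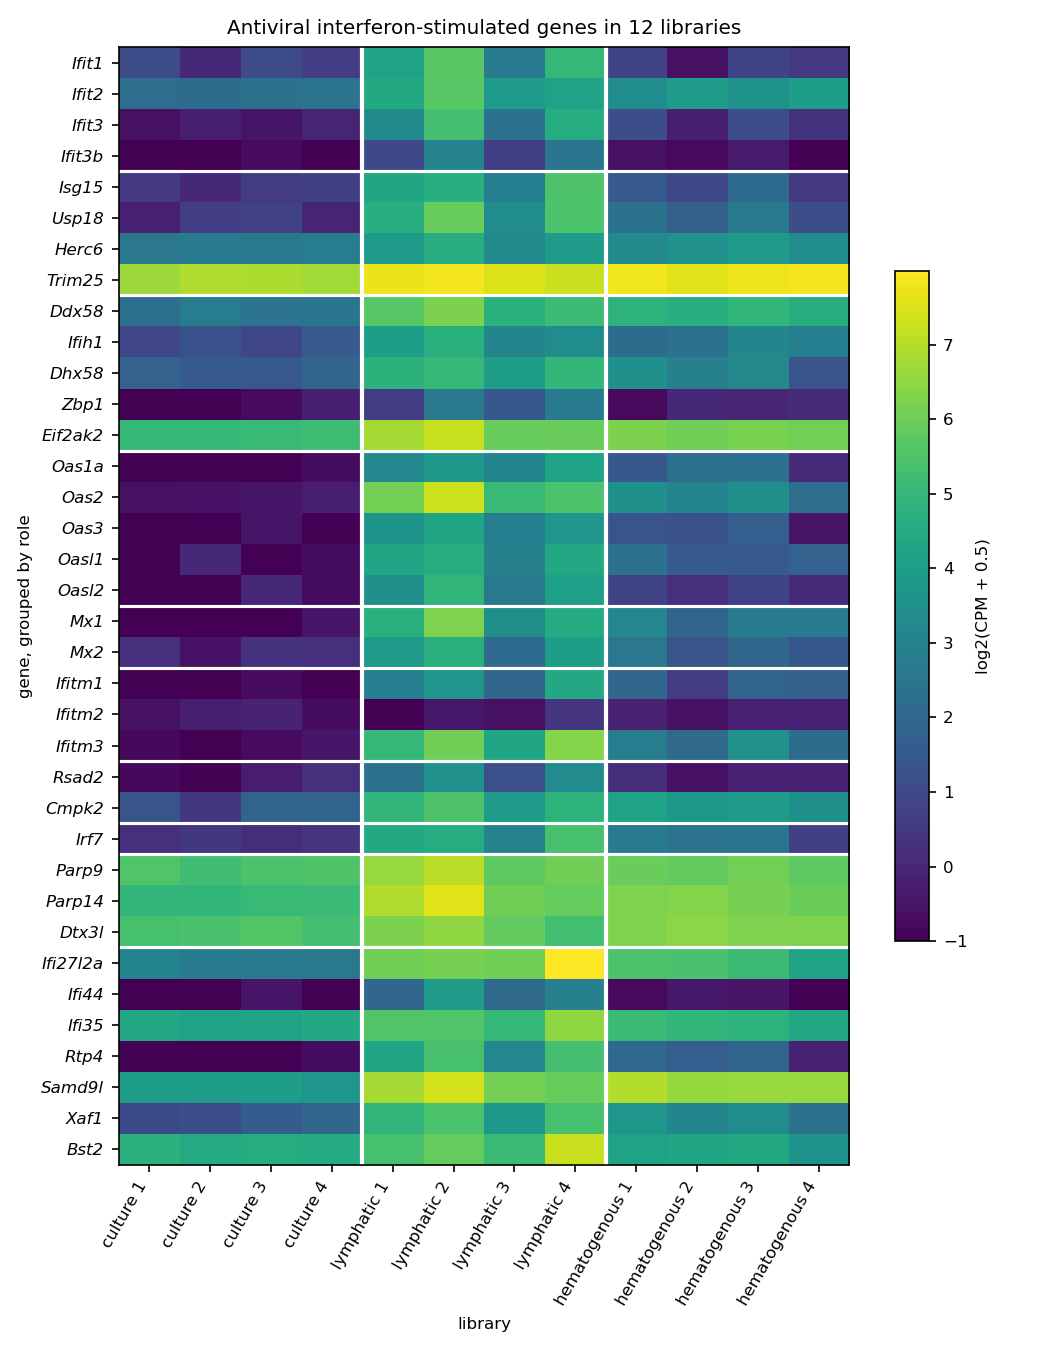
Level of the 36 genes (rows, grouped by role, white lines between roles) in the 12 libraries (columns, white lines between groups) as log2(CPM + 0.5). Most rows are darkest in culture and brightest in the lymphatic libraries; Trim25, at 102 CPM or more in every library, is bright throughout.

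The genes fell into 4 patterns of calls. In 18 genes both lymph node groups were above culture and the lymphatic group was above the hematogenous one; these were Ifit2, Usp18, Ddx58, Ifih1, Dhx58, Oas1a, Oas2, Oas3, Oasl1, Mx1, Mx2, Ifitm1, Ifitm3, Cmpk2, Irf7, Ifi27l2a, Rtp4 and Xaf1. In 10 genes (Ifit1, Ifit3, Ifit3b, Isg15, Zbp1, Oasl2, Rsad2, Ifi44, Ifi35 and Bst2) the lymphatic group was above both others, and the hematogenous group was not called against culture. In 6 genes (Herc6, Trim25, Eif2ak2, Parp14, Dtx3l and Samd9l) both lymph node groups were above culture and the routes were not called apart. Parp9 was called higher in the lymphatic group than in culture and in no other comparison. A gene that was not called is not shown to be equal between groups.

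**Figure D2:**
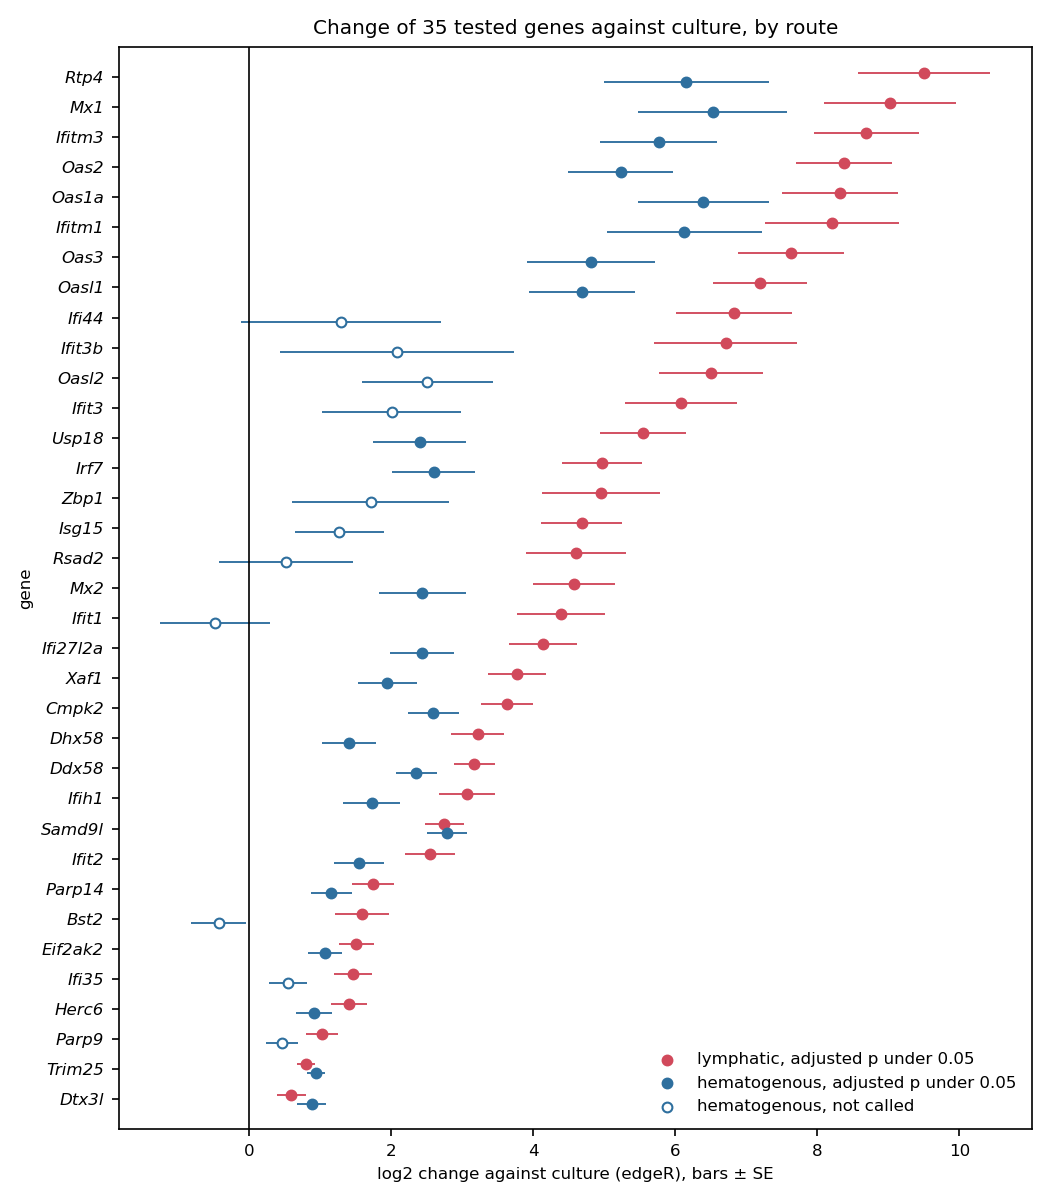
Fitted log2 change against culture (horizontal axis, bars ± SE) for the 35 tested genes, in the lymphatic group (red) and the hematogenous group (blue; open where not called), ordered by the lymphatic change. All red points are right of 0, from 0.59 for Dtx3l to 9.51 for Rtp4, and the blue points run from -0.48 for Ifit1 to 6.53 for Mx1. Fitted changes of genes with 1 or 2 counts in culture (Ifit3b, Oas1a, Oas3, Mx1, Ifitm1, Ifi44 and Rtp4) depend on the prior count. Their count ratios to culture have wide counting intervals.

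Since these genes moved together, their promoters were searched for the core of the interferon-stimulated response element, GAAA, then any 2 bases, then GAAA, on both strands and with overlapping matches counted. RefSeq windows from 250 bases before to 50 bases after the gene start (assembly GRCm38.p6) were at hand for 26 of the 36 genes. The core was in 13 of these 26 genes, and in 1079 (3.99%) of the 27025 promoters in the table. It was in 6 of 9 genes with the pattern of Ifit1 and Isg15 that had a window, in 5 of 11 higher in both groups and by route, and in 1 of 5 that the routes did not separate. In the bases before the start alone these counts were 6 of 9, 2 of 11 and 0 of 5. A match is a description of the letters, and binding was not measured. The stretches below show the arrangement in 8 genes with 1 to 3 cores before the start, written 5′ to 3′ on the strand of the gene, with every base of a match in capitals; TTTC at either end of a match means that it lies on the other strand. Positions count from 0 at the gene start, and coordinates are of GRCm38.p6, while the authors counted on GRCm39. The Isg15 stretch is chr4:156200855-156200916 (minus strand, -98 to -37) and the Oas1a stretch chr5:120907526-120907565 (minus strand, -40 to -1). Those of Bst2 and Oas3 are chr8:71537567-71537622 (minus strand, -150 to -95) and chr5:120777705-120777754 (minus strand, -95 to -46), and that of Rsad2 is chr12:26456543-26456592 (minus strand, -140 to -91). On chromosome 19 the stretches are chr19:34640765-34640833 (plus strand, -124 to -56) for Ifit1, chr19:34583353-34583436 (plus strand, -176 to -93) for Ifit3 and chr19:34607749-34607832 (plus strand, -208 to -125) for Ifit3b.
Isg15: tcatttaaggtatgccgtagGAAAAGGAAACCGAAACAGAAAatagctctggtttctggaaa
Oas1a: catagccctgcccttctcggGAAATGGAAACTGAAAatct
Bst2: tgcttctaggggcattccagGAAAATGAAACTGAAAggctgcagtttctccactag
Oas3: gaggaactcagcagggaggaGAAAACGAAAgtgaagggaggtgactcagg
Rsad2: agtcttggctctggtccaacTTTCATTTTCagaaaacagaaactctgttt
Ifit1: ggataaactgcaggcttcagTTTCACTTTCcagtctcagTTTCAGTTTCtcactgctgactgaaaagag
Ifit3: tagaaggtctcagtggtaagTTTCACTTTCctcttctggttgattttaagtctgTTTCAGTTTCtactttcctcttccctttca
Ifit3b: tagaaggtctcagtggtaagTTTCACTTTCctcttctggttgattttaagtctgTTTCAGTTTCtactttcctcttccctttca
Isg15 carried 3 cores that run into each other, Oas1a and Bst2 each carried 2 that overlap, and Ifit1, Ifit3 and Ifit3b each carried 2 that are apart. The letters of the Ifit3 and Ifit3b stretches are the same over all 84 bases. These 2 genes are neighbouring copies of each other, and their counts are uncertain because reads that fit both were not counted. In Ifih1, Ddx58, Ifitm3 and Eif2ak2 the core lay after the gene start, ending at position 41 or before.

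**Figure D3:**
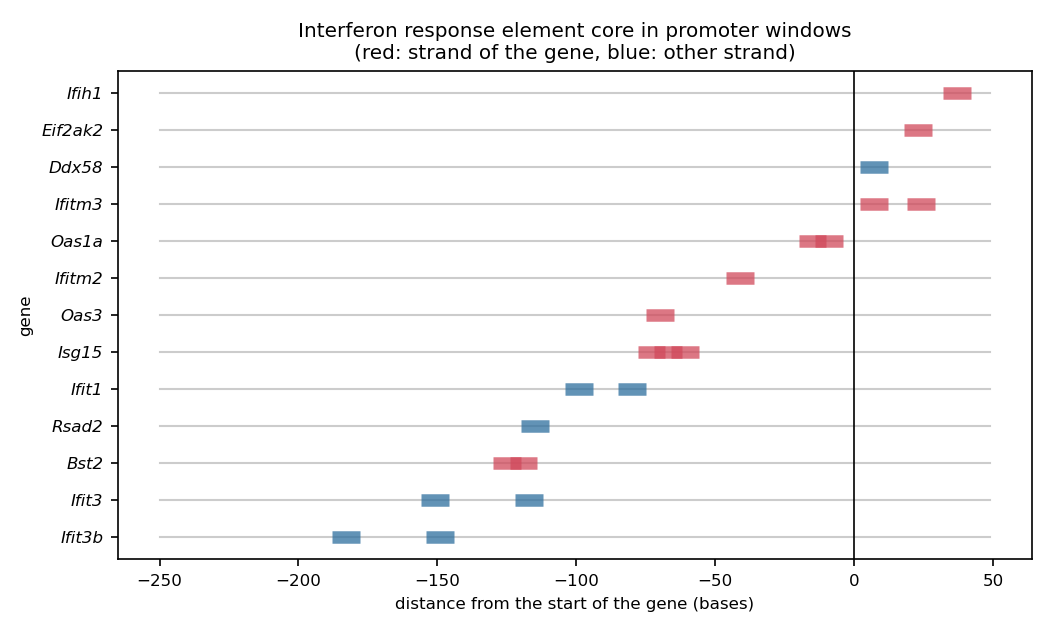
Position of each core match (bars) relative to the gene start (vertical line at 0, distance in bases) in the 13 genes with one; grey lines span the window of 250 bases before to 50 after. Red bars read on the strand of the gene and blue bars on the other; matches reach from -188 in Ifit3b to 41 in Ifih1.

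The IFIT proteins bind foreign RNA and block its translation. Ifit1, which recognises RNA whose cap lacks the methyl mark of the host, stood at 1.63, 0.520, 1.61 and 1.03 CPM in culture, 17.8, 50.8, 5.98 and 31.6 CPM in the lymphatic libraries and 1.28, 0.168, 1.27 and 0.948 CPM in the hematogenous libraries. All lymphatic libraries were above all others, and the hematogenous libraries lay within the culture range or under it. The log2 difference was 4.39 ± 0.62 (adjusted p = 1.53e-04) for lymphatic against culture, -0.48 ± 0.77 (adjusted p = 0.704) for hematogenous against culture and 4.87 ± 0.65 (adjusted p = 2.07e-04) between the routes. Ifit2, a relative that also restricts viruses, was at 4.12, 3.99, 4.72 and 4.94 CPM in culture, 21.7, 49.8, 14.7 and 17.6 CPM in the lymphatic libraries and 9.78, 15.3, 11.6 and 15.5 CPM in the hematogenous libraries. Both lymph node groups lay above culture, and their ranges overlapped. Its changes were 2.55 ± 0.35 (adjusted p = 1.20e-04) and 1.54 ± 0.35 (adjusted p = 0.00449) against culture. The route difference of 1.01 ± 0.32 (adjusted p = 0.0382) was lost without any one of culture libraries 1 to 3, lymphatic library 2 or hematogenous libraries 1 to 4, with limma-voom and with only these groups in the fit (adjusted p over all alternatives 4.78e-05 to 0.120). Ifit3, a partner of Ifit1, was at 0.155, 0.347, 0.214 and 0.460 CPM in culture, 9.05, 40.1, 4.72 and 23.3 CPM in the lymphatic libraries and 1.68, 0.336, 1.66 and 0.758 CPM in the hematogenous libraries, with all lymphatic libraries highest and the hematogenous range overlapping that of culture. It was higher in the lymphatic group than in culture by 6.09 ± 0.79 (adjusted p = 7.32e-05) and than in the hematogenous group by 4.08 ± 0.64 (adjusted p = 6.52e-04); for hematogenous against culture the value was 2.01 ± 0.98 (adjusted p = 0.154), called only when low genes were not filtered. Ifit3b, the neighbouring copy, had 1 count in culture, 319 in the lymphatic and 6 in the hematogenous group. The ratio of its depth-scaled counts was 166 (29.6 to 6577) for lymphatic against culture (95% counting interval) and 5.52 (0.669 to 254) for hematogenous against culture, the second interval spanning 1.

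Isg15 is a small protein that is attached to others like ubiquitin, Herc6 is the ligase that attaches it in mice, Usp18 removes it and also damps the interferon receptor, and Trim25 is a ubiquitin ligase that acts on the RNA sensor encoded by Ddx58. Trim25, at high level everywhere, was at 102, 120.5, 117 and 107 CPM in culture, 210.0, 229, 182 and 155 CPM in the lymphatic libraries and 223, 192, 217 and 229.5 CPM in the hematogenous libraries. Both lymph node groups were above culture and overlapped each other, with changes of 0.80 ± 0.13 (adjusted p = 3.76e-04) and 0.95 ± 0.13 (adjusted p = 6.32e-05) and a route difference of -0.15 ± 0.12 (adjusted p = 0.404). Usp18 was at 0.388, 1.04, 1.18 and 0.460 CPM in culture, 24.8, 58.8, 9.84 and 42.9 CPM in the lymphatic libraries and 4.81, 2.77, 5.66 and 1.71 CPM in the hematogenous libraries. Its 3 groups did not overlap. It rose by 5.54 ± 0.61 (adjusted p = 1.75e-05) in the lymphatic group, and differed by 3.14 ± 0.49 (adjusted p = 6.31e-04) between routes. The hematogenous change of 2.40 ± 0.65 (adjusted p = 0.0130) was lost without culture library 1 and with limma-voom (over all alternatives 2.40e-12 to 0.148). Herc6 was at 5.36, 6.24, 5.58 and 6.32 CPM in culture, 14.0, 23.9, 9.21 and 14.6 CPM in the lymphatic libraries and 9.22, 11.1, 13.7 and 10.0 CPM in the hematogenous libraries. Its lymph node groups overlapped, both above culture. Changes were 1.41 ± 0.25 (adjusted p = 9.93e-04) and 0.91 ± 0.26 (adjusted p = 0.0155), the second lost without hematogenous library 3 (over all alternatives 1.54e-04 to 0.0529). Between routes Herc6 differed by 0.49 ± 0.24 (adjusted p = 0.157), called only without lymphatic library 3. Isg15 itself ranged from 0.520 to 1.15 CPM in culture, from 0.948 to 3.91 in the hematogenous group and from 6.85 to 44.5 in the lymphatic group. It was higher in the lymphatic group than in culture by 4.68 ± 0.57 (adjusted p = 4.20e-05) and than in the hematogenous group by 3.41 ± 0.50 (adjusted p = 4.43e-04). For hematogenous against culture it stood at 1.27 ± 0.63 (adjusted p = 0.159), which was called without the filter on low counts and with only these groups in the fit (over all alternatives 0.00152 to 0.507).

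Among the sensors, Ddx58 encodes RIG-I and Ifih1 encodes MDA5, which detect foreign RNA, Dhx58 encodes their regulator LGP2, Zbp1 binds left-handed nucleic acid and Eif2ak2 encodes PKR, a kinase that stops translation when it meets double-stranded RNA. Eif2ak2 was at 31.1, 32.1, 33.7 and 36.3 CPM in culture, 109, 149.8, 58.8 and 61.1 CPM in the lymphatic libraries and 74.4, 65.5, 72.5 and 66.9 CPM in the hematogenous libraries. Lymphatic libraries 1 and 2 were above the hematogenous range and lymphatic libraries 3 and 4 below it, while all lymph node libraries were above culture. It rose by 1.51 ± 0.25 (adjusted p = 4.76e-04) and 1.07 ± 0.25 (adjusted p = 0.00454), and the route difference of 0.44 ± 0.24 (adjusted p = 0.201) was called only without lymphatic library 4 (0.60, adjusted p = 0.0324; over all alternatives 0.0324 to 0.639). Ddx58 was at 4.43, 6.59, 4.93 and 5.05 CPM in culture, 50.4, 74.2, 26.0 and 35.2 CPM in the lymphatic libraries and 27.7, 24.4, 29.9 and 23.9 CPM in the hematogenous libraries. The lowest lymph node library, at 23.9 CPM, lay well above the highest culture library. Its changes were 3.17 ± 0.29 (adjusted p = 3.06e-06) and 2.36 ± 0.29 (adjusted p = 2.65e-05). The lymphatic and hematogenous ranges overlapped, and the route difference of 0.81 ± 0.25 (adjusted p = 0.0345) was lost without any one of lymphatic libraries 1 and 2 or hematogenous libraries 1 to 4, and with limma-voom or only these groups in the fit (over all alternatives 2.41e-04 to 0.0883). Dhx58 was at 3.03, 2.43, 2.36 and 3.33 CPM in culture, 27.1, 31.6, 15.4 and 30.5 CPM in the lymphatic libraries and 11.0, 6.97, 8.99 and 2.09 CPM in the hematogenous libraries. The lymphatic libraries were above all others, and hematogenous library 4, the least deep, lay below every culture library. It rose by 3.22 ± 0.38 (adjusted p = 3.06e-05), and by 1.41 ± 0.38 (adjusted p = 0.0123) in the hematogenous group, a call lost with limma-voom (over all alternatives 2.85e-07 to 0.0768), and differed by 1.81 ± 0.34 (adjusted p = 0.00218) between routes. Ifih1 was higher in all 3 comparisons, by 3.07, 1.73 and 1.34, the last lost without hematogenous library 1. Zbp1 was at 0.345 CPM at most in culture and at 1.01 to 5.83 CPM in the lymphatic group, which was higher than culture by 4.95 ± 0.83 (adjusted p = 6.09e-04) and than the hematogenous group by 3.24 ± 0.67 (adjusted p = 0.00397). For hematogenous against culture its value was 1.71 ± 1.11 (adjusted p = 0.291).

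The oligoadenylate synthetases are switched on by double-stranded RNA and make the short oligoadenylates that activate RNase L. They were close to absent in culture and all 5 were higher in the lymphatic group than in either other group. Oas2 was at 0.155, 0.173, 0.214 and 0.345 CPM in culture, 68.8, 158, 33.1 and 43.2 CPM in the lymphatic libraries and 10.9, 7.81, 10.6 and 4.17 CPM in the hematogenous libraries. The 3 groups did not overlap, and lymphatic library 2 was highest. Its changes were 5.23 ± 0.74 (adjusted p = 9.97e-05) for hematogenous against culture and 3.14 ± 0.44 (adjusted p = 2.86e-04) between routes. Oasl1, which lacks the enzyme activity and restrains translation of Irf7, was at 0, 0.520, 0 and 0.115 CPM in culture, 19.3, 23.9, 7.00 and 20.9 CPM in the lymphatic libraries and 4.57, 2.52, 2.34 and 3.03 CPM in the hematogenous libraries. These groups did not overlap either, and the log2 differences were 7.19 ± 0.66 (adjusted p = 3.20e-06), 4.69 ± 0.75 (adjusted p = 2.89e-04) and 2.50 ± 0.41 (adjusted p = 9.22e-04) for lymphatic against culture, hematogenous against culture and lymphatic against hematogenous. Oasl2, an active enzyme in mice, was at 0, 0, 0.536 and 0.115 CPM in culture, 10.9, 29.8, 5.74 and 16.5 CPM in the lymphatic libraries and 1.28, 0.672, 1.27 and 0.569 CPM in the hematogenous libraries. Every hematogenous library was above every culture library by a small margin. The change of 2.51 ± 0.93 (adjusted p = 0.0591) missed the threshold and was called with DESeq2, without the low-count filter, and without any one of culture library 3, lymphatic library 2 or lymphatic library 3 (over all alternatives 4.48e-05 to 0.165). Against culture Oasl2 was higher in the lymphatic group by 6.50 ± 0.73 (adjusted p = 2.05e-05), and the routes differed by 3.99 ± 0.56 (adjusted p = 2.92e-04). Oas1a had 1 count in culture and 133 in the hematogenous group, a ratio of 122 (21.6 to 4865) with an adjusted p of 1.27e-04. Oas3 had 2 and 76, a ratio of 34.9 (9.34 to 294) with an adjusted p of 0.00104. Its ranges overlapped, with hematogenous library 4 at 0.190 CPM and culture library 3 at 0.214 CPM. Between routes Oas1a differed by 1.93 ± 0.42 and Oas3 by 2.81 ± 0.45. Oas1a has near-identical copies, and its counts are uncertain for that reason.

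The Mx proteins are GTPases that form rings around viral nucleoprotein. Mx1, the nuclear form that acts on influenza virus, carries a defective allele in many inbred strains, C57BL/6 among them, and its transcript is what was counted here. It was at 0, 0, 0 and 0.230 CPM in culture, 25.6, 75.5, 10.7 and 22.5 CPM in the lymphatic libraries and 8.41, 3.28, 6.15 and 6.07 CPM in the hematogenous libraries. Only culture library 4 held any count, and all hematogenous libraries lay between culture and the lymphatic range. The count ratio of hematogenous to culture was 109.9 (30.1 to 912) (adjusted p = 3.12e-04), and the routes differed by 2.50 ± 0.51 (adjusted p = 0.00353). Mx2, the cytoplasmic form, was at 0.699, 0.173, 0.751 and 0.689 CPM in culture, 14.0, 25.9, 3.93 and 15.5 CPM in the lymphatic libraries and 5.37, 2.02, 3.61 and 2.27 CPM in the hematogenous libraries. Both lymph node groups lay above culture, and lymphatic library 3 lay within the hematogenous range. Mx2 rose by 4.58 ± 0.58 (adjusted p = 6.12e-05) in the lymphatic group and differed by 2.13 ± 0.47 (adjusted p = 0.00529) between routes. The hematogenous change of 2.44 ± 0.61 (adjusted p = 0.00811) was lost with limma-voom (over all alternatives 3.29e-10 to 0.121).

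The IFITM proteins sit in membranes and hinder viruses from fusing with them. Ifitm3 was at 0.0776, 0, 0.107 and 0.230 CPM in culture, 31.5, 64.7, 19.0 and 80.8 CPM in the lymphatic libraries and 6.33, 3.87, 11.3 and 3.98 CPM in the hematogenous libraries. The 3 groups did not overlap. It was higher in the hematogenous group than in culture by 5.76 ± 0.83 (adjusted p = 1.22e-04), and the lymphatic group was higher again by 2.92 ± 0.44 (adjusted p = 4.94e-04). Ifitm1 was at 0, 0, 0.107 and 0 CPM in culture, 6.62, 12.7, 3.46 and 21.2 CPM in the lymphatic libraries and 3.45, 1.01, 3.22 and 2.84 CPM in the hematogenous libraries. Lymphatic library 3 was only just above hematogenous library 1. The hematogenous count ratio to culture was 94.7 (16.6 to 3776) (adjusted p = 7.32e-04), and the routes differed by 2.08 ± 0.50 (adjusted p = 0.00962). Ifitm2 was at 0.155, 0.347, 0.429 and 0.115 CPM in culture, 0, 0.239, 0.157 and 0.785 CPM in the lymphatic libraries and 0.401, 0.168, 0.391 and 0.379 CPM in the hematogenous libraries, too low to be tested, with overlapping ranges in all groups. Its promoter window and that of Ifitm3 hold the core, and no core was found in that of Ifitm1.

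Viperin, encoded by Rsad2, makes a nucleotide that ends viral RNA chains, and its genomic neighbour Cmpk2 encodes a mitochondrial kinase that supplies nucleotides. Cmpk2 was at 2.02, 0.867, 3.22 and 3.10 CPM in culture, 30.0, 44.0, 15.1 and 28.0 CPM in the lymphatic libraries and 18.2, 13.4, 14.6 and 10.8 CPM in the hematogenous libraries. All lymph node libraries were above culture, and the lymph node groups overlapped through lymphatic library 3. Its changes were 3.63 ± 0.36 (adjusted p = 7.68e-06) and 2.59 ± 0.36 (adjusted p = 9.44e-05). The route difference of 1.03 ± 0.31 (adjusted p = 0.0277) was lost without any one of lymphatic library 2 or hematogenous libraries 2, 3 and 4 (over all alternatives 1.77e-05 to 0.0813). Rsad2 was at 0.0776, 0, 0.322 and 0.689 CPM in culture, 4.73, 11.1, 1.81 and 9.71 CPM in the lymphatic libraries and 0.641, 0.168, 0.391 and 0.379 CPM in the hematogenous libraries. The lymphatic libraries were above all others, and hematogenous libraries lay within the culture range. The values were 4.60 ± 0.70 (adjusted p = 2.78e-04) for lymphatic against culture, 0.52 ± 0.94 (adjusted p = 0.741) for hematogenous against culture and 4.08 ± 0.65 (adjusted p = 7.49e-04) between routes.

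Irf7, the transcription factor that drives interferon alpha genes, was at 0.699, 0.867, 0.643 and 0.804 CPM in culture, 21.5, 23.0, 7.63 and 41.3 CPM in the lymphatic libraries and 6.17, 4.87, 5.18 and 1.14 CPM in the hematogenous libraries. The groups were in the order culture, hematogenous, lymphatic with no overlap; hematogenous library 4 was lowest in its group and lymphatic library 4 highest. Irf7 rose by 4.96 ± 0.56 (adjusted p = 2.26e-05) in the lymphatic group and differed by 2.37 ± 0.45 (adjusted p = 0.00221) between routes. Its hematogenous change of 2.60 ± 0.59 (adjusted p = 0.00409) was lost with limma-voom (over all alternatives 4.61e-14 to 0.0874).

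Parp9 and Dtx3l form a complex of an ADP-ribosyl transferase and a ubiquitin ligase and are transcribed from a shared promoter, and Parp14 encodes a related transferase. Parp14 was at 30.5, 30.5, 33.7 and 34.2 CPM in culture, 120.5, 189, 65.1 and 57.4 CPM in the lymphatic libraries and 76.5, 79.0, 70.6 and 61.8 CPM in the hematogenous libraries. Both lymph node groups were above culture. It rose by 1.74 ± 0.30 (adjusted p = 6.77e-04) and 1.16 ± 0.30 (adjusted p = 0.00873), and its route difference was 0.58 ± 0.29 (adjusted p = 0.159), called without lymphatic library 4 (0.78) and without the filter on low counts (over all alternatives 0.00507 to 0.576). Parp9 was at 46.5, 37.6, 42.8 and 45.5 CPM in culture, 97.4, 135, 53.4 and 64.8 CPM in the lymphatic libraries and 60.9, 56.8, 66.9 and 54.0 CPM in the hematogenous libraries. All lymph node libraries were again above culture, with only lymphatic library 3 under the lowest hematogenous value. It rose by 1.02 ± 0.23 (adjusted p = 0.00449) in the lymphatic group. For hematogenous against culture the value was 0.47 ± 0.23 (adjusted p = 0.153), called without the low-count filter, with only these groups in the fit and without lymphatic library 2 (over all alternatives 3.73e-04 to 0.297). Between routes it was 0.55 ± 0.22 (adjusted p = 0.0918), called without the low-count filter and without lymphatic library 3 or 4 (over all alternatives 0.00892 to 0.276). Dtx3l was at 40.7, 42.3, 47.9 and 39.5 CPM in culture, 73.7, 89.4, 55.9 and 37.9 CPM in the lymphatic libraries and 75.3, 86.6, 76.4 and 75.4 CPM in the hematogenous libraries. Lymphatic library 4 was under all culture libraries while the other 3 were above them, and all hematogenous libraries were above culture. The hematogenous rise was 0.88 ± 0.20 (adjusted p = 0.00467). The lymphatic rise of 0.59 ± 0.20 (adjusted p = 0.0433) was the weakest of the 35: it was lost without any one of the culture or hematogenous libraries or lymphatic libraries 1 and 2, and with limma-voom or only these groups in the fit (over all alternatives 2.30e-04 to 0.126). Without lymphatic library 4 it was 0.77. Between routes Dtx3l stood at -0.29 ± 0.20 (adjusted p = 0.318).

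Of the remaining effectors, Samd9l, which restricts poxviruses and cell growth, was at 15.7, 15.6, 16.0 and 12.6 CPM in culture, 109.6, 165, 68.1 and 59.9 CPM in the lymphatic libraries and 124, 94.8, 97.0 and 97.4 CPM in the hematogenous libraries. All lymph node libraries were far above culture, and the hematogenous range lay inside the lymphatic one. Its changes were 2.75 ± 0.28 (adjusted p = 7.87e-06) and 2.79 ± 0.28 (adjusted p = 4.30e-06). The route difference was -0.04 ± 0.25 (adjusted p = 0.938), and it changed sign without lymphatic library 3, lymphatic library 4 or hematogenous library 1 (log2 over all alternatives -0.38 to 0.14). Ifi27l2a, a small interferon-induced protein, was at 7.92, 5.89, 6.11 and 5.74 CPM in culture, 65.4, 70.8, 65.8 and 255 CPM in the lymphatic libraries and 43.0, 42.6, 35.2 and 18.6 CPM in the hematogenous libraries. The 3 groups did not overlap, and lymphatic library 4 was far above the other lymphatic libraries. It rose by 4.14 ± 0.47 (adjusted p = 2.48e-05) and 2.44 ± 0.45 (adjusted p = 0.00104), and the route difference of 1.70 ± 0.41 (adjusted p = 0.00962) was 0.92 without lymphatic library 4 (adjusted p = 0.00170; over all alternatives 3.98e-19 to 0.0447). Bst2, or tetherin, holds budding virus at the cell surface. It was at 26.3, 22.4, 23.5 and 22.9 CPM in culture, 41.3, 57.3, 34.2 and 154 CPM in the lymphatic libraries and 18.0, 19.0, 21.7 and 11.6 CPM in the hematogenous libraries. All lymphatic libraries were above culture and all hematogenous libraries were below it. The changes were 1.59 ± 0.38 (adjusted p = 0.00740) and -0.42 ± 0.39 (adjusted p = 0.473), the second called lower when only these groups were fitted (over all alternatives 0.0235 to 0.702). The routes differed by 2.02 ± 0.39 (adjusted p = 0.00258). Without lymphatic library 4 the lymphatic rise was 0.89 and the route difference 1.31. Ifi44, Rtp4 and Xaf1 were all higher in the lymphatic group than in both others, the route differences being 5.53 ± 0.70, 3.35 ± 0.51 and 1.82 ± 0.36. Against culture the hematogenous group had a count ratio of 104 (18.3 to 4139) for Rtp4 (adjusted p = 0.00116) and 2.76 (0.493 to 27.9) for Ifi44, whose interval spans 1. Ifi35 was at 19.3 ± 1.65 CPM in culture, 53.4 ± 25.3 in the lymphatic and 28.1 ± 5.88 in the hematogenous group. It rose by 1.47 ± 0.27 (adjusted p = 0.00110) in the lymphatic group. Its hematogenous value of 0.55 ± 0.27 (adjusted p = 0.154) was called without lymphatic library 4, without the low-count filter and with only these groups in the fit (over all alternatives 0.00225 to 0.340), and its route difference of 0.92 ± 0.26 (adjusted p = 0.0219) was lost without hematogenous library 3 or 4 and with only these groups in the fit (over all alternatives 9.98e-06 to 0.0691).

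**Figure D4:**
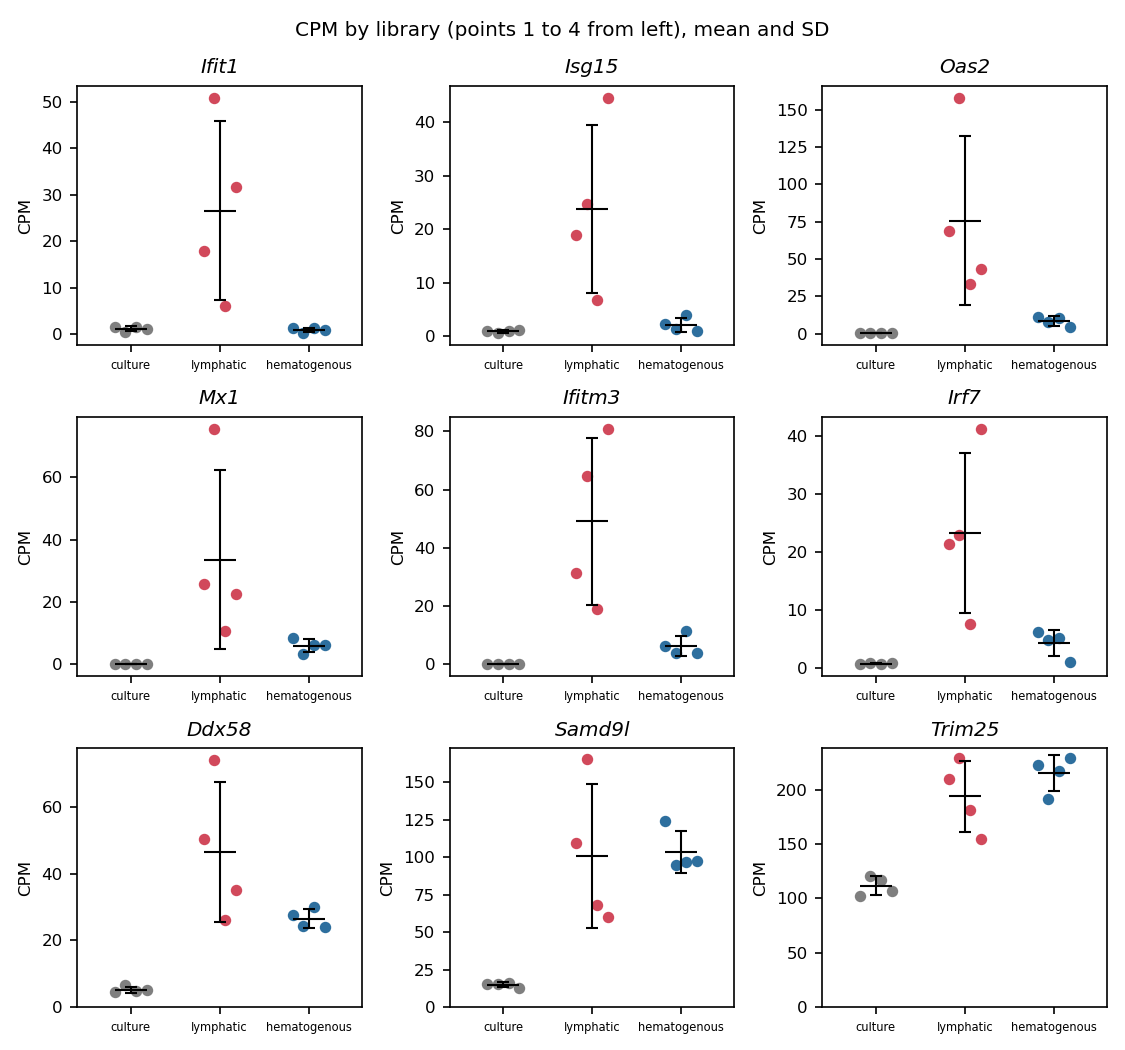
CPM (linear vertical axes, different for each gene) of 9 genes in each library, points 1 to 4 from left in each group, with mean (line) and SD (bars, n = 4). Ifit1, Isg15, Oas2, Mx1, Ifitm3 and Irf7 are highest in the lymphatic group, all with a wide spread among its 4 libraries; Samd9l and Trim25 reach similar values in both lymph node groups.

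The size of the change went with the level in culture. The 8 genes at 10 CPM or more in culture (Trim25, Eif2ak2, Parp9, Parp14, Dtx3l, Ifi35, Samd9l and Bst2) changed by log2 0.59 to 2.75 in the lymphatic group. The 9 genes at 1 to 10 CPM changed by 1.41 to 4.39, and the 18 below 1 CPM by 4.58 to 9.51. A change against culture holds the culture value in it, so this is a description and carries no test. A gene below 1 CPM in culture passed the low-count filter mainly through a higher level in another group. Ifitm2, at 0.261 CPM in culture and 0.295 CPM in the lymphatic group, did not pass and is left out here. Per kilobase of exon, the highest levels in culture were those of Bst2 (26.3 CPM per kb), Trim25 (19.4) and Ifi27l2a (13.9). In the lymphatic group they were those of Ifi27l2a (247), Bst2 (79.3) and Ifitm3 (72.3), and in the hematogenous group those of Ifi27l2a (75.2), Trim25 (37.4) and Bst2 (19.5).

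The lymphatic libraries differed among themselves in these genes more than the other groups did, as the spread of the summed levels shows. Lymphatic library 2 was the highest of the 4 in 26 of the 35 tested genes and lymphatic library 4 in 9. Lymphatic library 3 was the lowest in 28, and lymphatic library 4 in 4 (Trim25, Parp14, Dtx3l and Samd9l). In the hematogenous group, library 1 was the highest in 18 genes and library 4, the least deep, the lowest in 19. What set lymphatic library 4 apart went with gene length. Its log2(CPM + 0.5) minus the mean of the other 3 lymphatic libraries had a Spearman correlation with exon length of -0.519 across 13320 genes and -0.810 across the 35 genes; both are correlations across genes within 1 library, which are not independent replicates. The 9 of these genes in the shortest length quartile of all genes, among them Bst2, Ifi27l2a, Isg15 and Ifitm3, were all higher in library 4, with a median difference of 1.24, where the median of all genes in that quartile was 0.60. In the second quartile, which holds Irf7, Ifit1 and Mx1, 8 of 9 were higher (median 0.80, all genes 0.25). In the third, which holds Samd9l, Dtx3l, Trim25 and Oas2, 4 of 11 were higher (median -0.45, all genes -0.10), and in the longest, which holds Ddx58, Oas3 and Parp14, 3 of 6 (median -0.19, all genes -0.54). Of the genes highest in library 4, the lymphatic rise without it was 4.18 in Isg15, 8.33 in Ifitm3, 4.54 in Irf7, 1.09 in Ifi35 and 4.66 in Zbp1. Their route differences without it were 2.90, 2.57, 1.92, 0.54 and 2.96, and those of Ifitm1 and Oas1a were 1.56 and 1.64; all of these were called. The 10 genes called between routes but not for hematogenous against culture had a median exon length of 2328 bp, and the 6 that the routes did not separate one of 5739.5 bp. The part of gene length in the route differences was not tested beyond leaving out library 4.

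**Figure D5:**
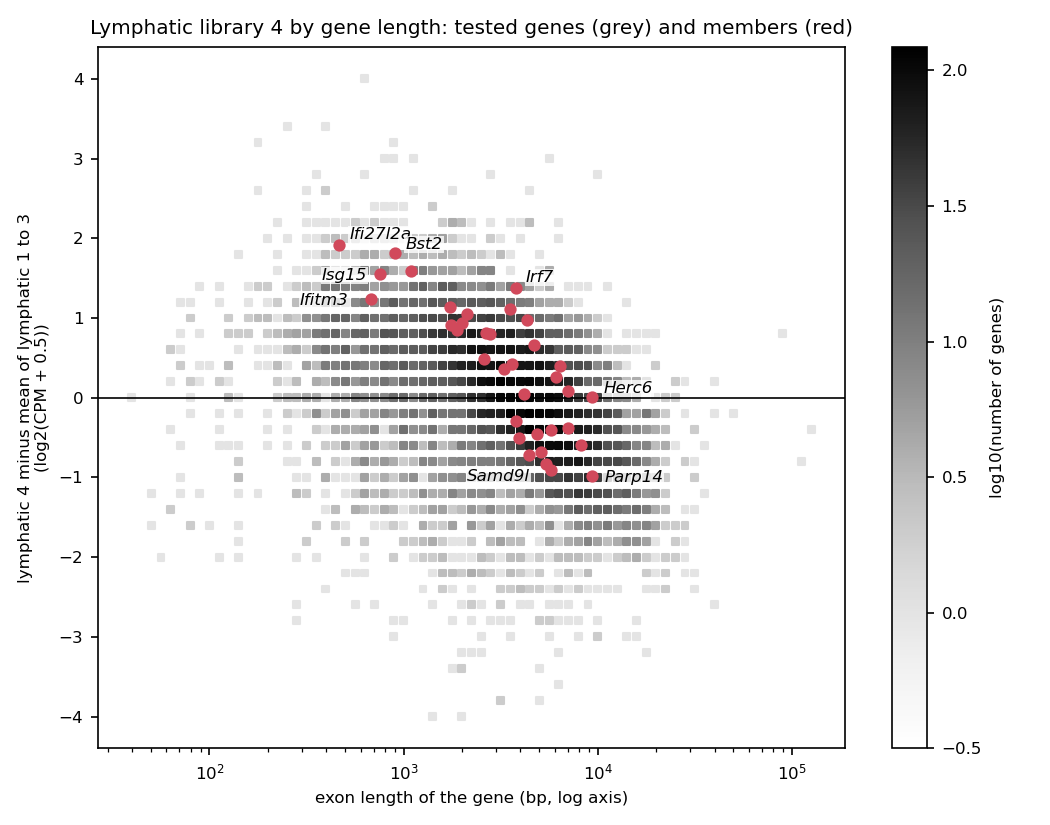
Lymphatic library 4 minus the mean of lymphatic libraries 1 to 3 in log2(CPM + 0.5) (vertical axis) against exon length (horizontal log axis, bp); grey squares give the number of tested genes on a log10 scale, red points are the 35 genes described here. Red points fall from Ifi27l2a (463 bp, 1.91) to Parp14 (9306 bp, -0.98).

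Of the genes that carry the interferon signal, no ligand was detectable at a level that could be tested. Ifnb1, Ifna1, Ifna2, Ifna4, Ifna5, Ifna6, Ifne, Ifnl2 and Ifnl3 had 0 counts in all 12 libraries, where 3 counts correspond to between 0.119 and 0.569 CPM depending on the library, and Ifnk and Ifng did not pass 0.347 CPM in any. Of the receptor and relay genes, Irf9, a DNA-binding part of the complex, was at 8.91 ± 1.23 CPM in culture, 55.8 ± 14.7 in the lymphatic and 24.5 ± 5.40 in the hematogenous group, differing by 2.64 ± 0.22, 1.45 ± 0.22 and 1.18 ± 0.21. Stat2 was called in no comparison. Irf1, a factor induced mostly by interferon gamma, was higher in the lymphatic group than in culture (0.74 ± 0.18 (adjusted p = 0.00752)) and than in the hematogenous group (1.08 ± 0.18 (adjusted p = 9.90e-04)). The receptor chain Ifnar1 was higher in the hematogenous group (51.3 ± 6.35 CPM) than in culture (34.3 ± 1.38) or the lymphatic group (34.5 ± 4.60). The kinase Jak2 was lower than in culture in both lymph node groups (-0.80 and -0.54), Stat3 was lower in the hematogenous group (-0.36), and Jak1 was lower in the lymphatic than in the hematogenous group (-0.48). Named after their values were seen were also Jak1 (-0.61), Stat3 (-0.43) and Il10rb (-0.52), lower in the lymphatic group than in culture, and Ifnar2, higher in the hematogenous group (0.48).

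Of 15 tested adaptors and kinases of the pathways that induce interferon, 4 were higher and 1 lower in the lymphatic group than in culture, 5 higher and 2 lower in the hematogenous group, and 3 higher and 2 lower between routes. Of all genes tested, 13.4% and 13.0% were called higher and lower in the first comparison and 13.9% and 13.9% in the second. Between routes 11.4% and 10.9% were. Tmem173, which encodes the adaptor STING, went in opposite directions, by 0.55 ± 0.14 (adjusted p = 0.00867) in the lymphatic group and -0.68 ± 0.14 (adjusted p = 0.00194) in the hematogenous group, with a route difference of 1.23 ± 0.14 (adjusted p = 7.24e-05). The kinase adaptor Azi2 was higher in both (0.38 and 0.61), Tank was higher by 0.38 in the lymphatic group, and Traf3 by 0.81 in the hematogenous group. The DNA sensor Tlr9 (-1.59) and the factor Irf5 (-0.81) were lower in the lymphatic than in the hematogenous group, and Irf5 was higher in the hematogenous group than in culture (0.64). The remaining called genes, again named after their values were seen, were the RNA sensor Tlr7, with 1 count in culture and 2.64 ± 1.48 and 0.964 ± 0.255 CPM in the lymphatic and hematogenous groups and called in all 3 comparisons, Tank in the hematogenous group (0.47), Ticam1 in the lymphatic group (-0.78) and Ikbke, lower in the hematogenous group than in culture (-1.29) and higher in the lymphatic than in the hematogenous group (1.74). Of 13 tested feedback inhibitors, 0 were higher and 1 lower in the lymphatic group than in culture. In the hematogenous group 1 was higher and 0 lower, and between routes 0 were higher and 3 lower. The shares of all tested genes called are those given for the adaptors, with 10.9% lower between routes. Irf2, a repressor at response elements, was lower in the lymphatic group than in culture (-0.56) and than in the hematogenous group (-0.83). Between routes the phosphatases Ptpn1 (-0.56) and Ptpn6 (-0.38) were lower too, and Ptpn6 was higher in the hematogenous group than in culture (0.42).

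Of 55 other tested interferon-stimulated genes, 40 were higher and 2 lower in the lymphatic group than in culture (median 1.01), 31 higher and 5 lower in the hematogenous group (median 0.79), and 26 higher and 2 lower between routes (median 0.45). The shares of all tested genes called higher and lower were 13.4% and 13.0%, 13.9% and 13.9%, and 11.4% and 10.9%, in that order. The largest lymphatic rises among those at 10 CPM or more were in Slfn5 (7.27 ± 0.66), the galectin binding protein Lgals3bp (6.39 ± 0.44), the GTPase Gbp7 (5.77 ± 0.59) and Epsti1 (4.90 ± 0.39). In the hematogenous group they were in Epsti1 (4.45 ± 0.40), Phf11b (3.49 ± 0.33), Gbp3 (3.07 ± 0.35) and Tor3a (1.98 ± 0.19). Between routes the largest were in Slfn5 (3.11 ± 0.43), Parp12 (2.74 ± 0.36), Phf11d (2.37 ± 0.47) and Gbp2 (2.32 ± 0.31). Against most of the list, Sp140 was lower than in culture in both lymph node groups (-0.65 and -0.55), and Trim5 was lower in the lymphatic group than in culture (-0.64) and than in the hematogenous group (-1.33). The hematogenous group was lower than culture in Gbp2 (-1.90), Cd274, which encodes the checkpoint ligand PD-L1 (-0.92), Trafd1 (-0.91) and Ms4a4c (-1.24, named after its value was seen). Ly6e was lower in the lymphatic than in the hematogenous group (-0.67).

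Transcripts of other cell types also differed between the groups, and not all in the direction of the antiviral genes. All 13 T cell markers were higher in the lymphatic group than in culture and 10 in the hematogenous group, and 11 were higher in the lymphatic than in the hematogenous group. Of all genes tested, 13.4%, 13.9% and 11.4% were called higher in these comparisons, and 13.0%, 13.9% and 10.9% lower. The summed level of the T cell markers was 1.18 to 3.79 CPM in culture, 23.7 to 106 CPM in the lymphatic and 8.09 to 19.4 CPM in the hematogenous libraries. Trbc2 (8.07 ± 7.26 CPM), Lat (6.07 ± 5.32) and Trac (5.60 ± 4.38) were highest in the lymphatic group. In culture 7 of the 13, among them Cd3d, Trbc1, Trbc2 and Cd4, were at 0. Markers at 0 in culture passed the low-count filter only through lymph node libraries, so against culture they could only be called higher. Of 12 macrophage and monocyte markers 7 were tested, and 5 were higher and 2 lower in the lymphatic group than in culture. In the hematogenous group 4 were higher and 2 lower than in culture, and between routes 3 were higher and 0 lower. The lowest log2 changes against culture were -3.13 in the lymphatic and -2.66 in the hematogenous group. In culture 8 of the 12 were at 0, and the same limit holds for those tested. Their sums were 14.7 to 19.9, 32.6 to 101 and 20.1 to 28.4 CPM in culture, lymphatic and hematogenous libraries. Lyz2 reached 27.6 ± 14.0 CPM in the lymphatic and 11.7 ± 3.19 in the hematogenous group, Cd68 9.79 ± 0.355 and 7.38 ± 1.29, and Marco 6.80 ± 7.03 and 0.468 ± 0.351. Markers of plasmacytoid dendritic cells other than Bst2 summed to 1.63 to 2.53, 7.28 to 35.9 and 19.2 to 37.2 CPM, mostly from Cox6a2, while the defining marker Siglech was at 0.955 CPM or less in the lymphatic and 1.09 CPM or less in the hematogenous libraries. NK cell markers summed to 18.7 to 22.8 CPM in culture, nearly all Klrb1c, and to 6.11 CPM or less in the lymph node libraries, with Ncr1 at 0 in the culture and hematogenous libraries. Neutrophil markers summed to 1.95 CPM or less, with Ly6g at 0 throughout, and stroma markers at 0.804 CPM or less. The endothelial sum, nearly all Pecam1, was 76.4 to 80.2, 80.7 to 115 and 139 to 167 CPM. Markers of conventional dendritic cells summed to 11.6 to 17.5 CPM in culture, 6.28 to 12.7 in the lymphatic and 6.64 to 11.8 in the hematogenous libraries. Lymphatic library 4 had the highest T cell and macrophage sums, and the next highest lymphatic values were 43.8 CPM for T cells and 65.5 CPM for macrophages. Among lymphatic libraries it was also highest in the plasmacytoid (35.9 CPM, next 12.1), NK and conventional dendritic cell sums. Its neutrophil, stroma and endothelial sums were the lowest of that group. The part of gene length in these sums was not tested. The part of host cell transcripts in the changes of the antiviral genes was not tested.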

How the data were processed

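Poly(A)-selected, stranded single-end RNA-seq counts of 12 libraries (4 culture, 4 lymphatic on day 11, 4 hematogenous on day 18) were used. The deposited values are raw counts per gene, 1 file per library; the submitters' processing notes name FastQC 0.11.9, Trimmomatic 0.39, HISAT2 2.1.0, HTSeq 2.0.2 and the build GRCm39, without their settings. Between 30.3% and 36.5% of the reads counted stand on summary lines that name no gene, and these were left out; reads without a unique alignment were 9.64% to 13.2%, so near-identical copies can lose reads. Symbols were matched for 91.8% of the identifiers (at least 98.8% of counts). From the counts, edgeR 4.0.16 in R 4.3.3 was run with TMM factors, its low-count filter and 1 factor for group over all 12 libraries (quasi-likelihood F test, two-sided, Benjamini-Hochberg over 13535 genes, threshold 0.05, 9 residual degrees of freedom). A run on simulated data used the same spread in all groups, so it does not cover the wider spread of the lymphatic libraries. An SE is the log2 change divided by the root of F, so approximate. Count ratios carry exact 95% intervals for counting error only, as do floors of 3 counts. Exon lengths are from GENCODE, promoters from RefSeq (GRCm38.p6), where in 24 of 27 windows the bases after the start were found in a transcript of the gene.

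The members and lists were chosen with earlier results of these data known, so no test over a list is given. Values in every library are printed for the up to 3 members of each role with the highest mean CPM; of other lists, up to 4 called genes per comparison with the largest change and 10 CPM or more in the higher group, those called against most of their list, and up to 3 markers per cell type. Of 205 listed names 203 were matched; Mb21d1 and Mnda were not. A B cell marker and a relay gene of these lists, and the counts that need them, are not reported here. The labels do not say that libraries came from separate cultures or animals, so p-values measure the spread between these samples, which may be technical. No 2 libraries held identical counts. Alternatives were DESeq2 1.42.0, median-of-ratios factors, limma-voom (limma 3.58.1), no low-count filter, only the groups compared, the replicate number as a block, each library left out, and for promoters another window and a longer motif.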

Additional observations from a re-analysis of the deposited data

Results flagged for a closer look

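Of 108 groups of 4 libraries (36 genes, 3 groups), 15 held a library far from the other 3. In 7 of these a single culture library held the only counts of a gene, which sets it apart by construction; for other groups chance alone singles out about 1 in 20. Culture library 3 held the only counts of Ifit3b (0.107 CPM), Ifitm1 (0.107 CPM), Oas3 (0.214 CPM) and Ifi44 (0.214 CPM), and culture library 4 those of Oas1a (0.115 CPM), Rtp4 (0.115 CPM) and Mx1 (0.230 CPM). In culture, Mx2 was low in library 2 (0.173 against 0.689 to 0.751 CPM), Ifi27l2a high in library 1 (7.92 against 5.74 to 6.11 CPM) and Samd9l low in library 4 (12.6 against 15.6 to 16.0 CPM). Among hematogenous libraries, library 1 was low in Zbp1 (0.0801 against 0.488 to 0.569 CPM) and high in Samd9l (124 against 94.8 to 97.4 CPM), and library 2 was low in Ifitm2 (0.168 against 0.379 to 0.401 CPM) and high in Dtx3l (86.6 against 75.3 to 76.4 CPM). In lymphatic library 4, Ifi27l2a stood at 255 CPM against 65.4 to 70.8 CPM in the other lymphatic libraries.

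For 2 genes the fitted changes against culture differed in sign between the routes and the direct comparison of the routes was called in edgeR. The difference of the changes, lymphatic minus hematogenous, was log2 4.87 for Ifit1 (adjusted p = 2.07e-04) and 2.02 for Bst2 (adjusted p = 0.00258), with 4 of 4 lymphatic libraries above all hematogenous ones in both genes. The hematogenous changes themselves were not called for either gene.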

How the results depend on the processing

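Over all alternatives, 617 of 630 single-gene results of the lymphatic comparison with culture kept direction and call and 13 lost the call, all for Dtx3l. For hematogenous against culture 599 of 620 were kept, 6 lost and 15 gained, and between routes 590 of 630 were kept, 30 lost, 7 gained and 3 reversed. The reversals are Samd9l between routes, at 0.11 without lymphatic library 3, 0.14 without lymphatic library 4 and 0.05 without hematogenous library 1, none of them called; without single libraries it ran from -0.38 to 0.14. With only the groups compared in the fit, hematogenous against culture gave 3150 genes higher and 3194 lower, 1 antiviral gene (Bst2) and 15 other pathway genes lower, and the routes gave 910 higher and 824 lower. The cause was not tested. Leaving out 1 library at a time, all genes higher and lower ran from 1545 to 2995 and from 1580 to 2935 for hematogenous against culture, and from 930 to 2080 and from 1072 to 2253 between routes, the highest counts always without lymphatic library 4. Antiviral genes higher then ran from 34 to 35, 23 to 26 and 24 to 31 in the 3 comparisons. Other scalings moved the median of all genes by 0.03 or less.

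No pairing of libraries by replicate number was seen. In 12 same-numbered pairs, correlations of deviations ran from -0.238 to 0.115, and 1 was over 0.1. In 36 other pairs they ran from -0.406 to 0.411. A library correlated best with its own number in 3 of 24 cases. The deviations also carry differences of single libraries, such as lymphatic library 4, so a pairing is not excluded. With the replicate block 34, 24 and 24 antiviral genes were higher, with medians of 4.45, 2.05 and 1.93, and 1428, 1645 and 1116 of all genes were higher and 1532, 1696 and 1193 lower; the block took the call from Dtx3l in the lymphatic comparison with culture and from Ifit2, Ddx58, Cmpk2 and Ifi35 between routes. Genes with 1 or 2 counts in culture, and hematogenous library 4 with 5286775 counts, limit the precision of the largest ratios.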

Other observations

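The core of the interferon-stimulated response element was also counted in the promoter windows of all tested genes, of which 9045 had one. It was present in 7.96% of those called higher in the lymphatic group than in culture, 2.30% of those called lower and 3.26% of those not called. For hematogenous against culture the shares were 6.32%, 2.12% and 3.63%, and between routes 5.56%, 2.98% and 3.64%. The antiviral genes are among those called higher. In the bases before the start alone, 9 of the 26 antiviral genes with a window held the core, among them Isg15, Ifit1 and Bst2, and 3.46% of all promoters did. A form with a C after the last A, over the whole window, was in 10 of the 26 and in 0.944% of all promoters. These shares are descriptions of letters in the windows and carry no test.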
